A study of Mus musculus with 45 samples.

Results

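The phagocyte NADPH oxidase and its companion proton channel were followed through 6 genes in mouse bone marrow-derived macrophages. The genes were *Cybb*, *Cyba*, *Ncf1*, *Ncf4*, *Rac2* and *Hvcn1*, chosen by name and matched to the gene symbols of the deposited table of depth-scaled counts (CPM), and all 6 were found among the 29307 genes of the count table and among the 12905 genes with enough reads to test. The oxidase moves electrons from cytosolic NADPH across a membrane onto oxygen and so makes superoxide for the killing of engulfed microbes. At rest its membrane pair waits apart from a set of cytosolic organizer subunits and a Rac GTPase, and assembly of these parts at the phagosome or plasma membrane starts the reaction. Since each electron that crosses leaves a proton behind, a voltage-gated proton channel in the same membrane lets protons follow and keeps charge and cytosolic pH in balance. Macrophages are known to hold the whole machine, at lower activity than neutrophils.

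RNA was sequenced from 45 cultures of 15 C57BL/6N mice, 5 mice in each of 3 groups that carry *Famin* (listed in the files as *Lacc1*) with isoleucine at residue 254 (p.254I), valine at the same residue (p.254V) or arginine at residue 284 (p.284R). The mice, aged 6 to 10 weeks, were engineered to carry the residues of the human non-risk form, the human risk form and a human disease mutation, and mice with the unaltered gene were not analysed here. The paper states that C57BL/6 mice themselves express p.254V. The p.254I group, the reference of most genotype comparisons below, thus carries the human non-risk residue and not that of the strain. FAMIN is an enzyme of purine metabolism. Bone marrow was grown for 6 days in M-CSF, and the macrophages were then left unstimulated (M0), polarised with IFN-γ plus LPS (M1) or polarised with IL-4 (M2). Each mouse gave 1 culture of each kind, as far as genotype and replicate number tell, so the 15 mice and not the 45 libraries were the independent units, and the values describe cultured cells of 1 strain rather than tissue. The main test had no term for the mouse, so its p-values measure the spread between libraries of a group, and for comparisons averaged over polarisations they count the 3 cultures of a mouse as separate.

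Libraries held 17239009 to 43740283 counted reads, with a median of 27553642. Most listed markers went with the labels of cell type and polarisation. *Adgre1*, which encodes F4/80, had at least 1269 CPM and *Csf1r* at least 1471 CPM in every library, while the T cell, B cell, mast cell and erythroid lists each summed to at most 0.487 CPM. Of the M1 markers, *Cxcl9* had at least 979 CPM in M1 and at most 1.45 in M0 and *Nos2* averaged 37.6 in M1, but *Il12b* reached only 0.201. Of the M2 markers, *Arg1*, *Retnla*, *Chil3* and *Mrc1* averaged 1034, 3995, 1582 and 1303 CPM in M2 against 0.315, 0.153, 18.7 and 756 in M0. The M0 and M2 libraries of p.254I replicate 4 lay farthest from the other libraries of their polarisation. Their root mean square log2 distances were 0.545 in M0, where the next library had 0.388, and 0.467 in M2, where the next had 0.401. *Fcgr1*, a listed macrophage marker, averaged 405, 1210 and 53.1 CPM in M0, M1 and M2. It had 1098 CPM in the M0 library of p.254I replicate 4, within the M1 range of 1064 to 1387. In the M2 library of that mouse it had 153 CPM, the highest of M2. *Lacc1* was lower in p.284R replicates 1 to 3 (396, 263 and 218 CPM in M1) than in replicates 4 and 5 (584 and 553), whereas p.254I had 486 to 523 CPM and p.254V 533 to 597. Leaving out any 1 of the 15 mice changed no member's polarisation call. Without p.254I replicate 4, *Hvcn1* had log2 fold changes of -2.32 in M1 and 0.97 in M2 against M0, and *Cybb* 0.51 and -1.07. Markers of neutrophils, which carry the oxidase at high levels, are given below, and their part in the results was not tested.

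The promoters at hand are shown first, to set *Cybb* and *Ncf1*, which rose in M1 and fell in M2, beside *Cyba*, which rose in both. The RefSeq table (GRCm38.p6) gave the 250 bases before the start for 3 of the 6 genes: *Cybb* at chrX:9469325-9469574, *Ncf1* at chr5:134229626-134229875 and *Cyba* at chr8:122432941-122433190, each on the minus strand and written here from 5′ to 3′ in the direction of the gene. Capitals mark GAAA followed after any 2 bases by GAAA, the repeat of interferon-stimulated response elements, on either strand.
Cybb: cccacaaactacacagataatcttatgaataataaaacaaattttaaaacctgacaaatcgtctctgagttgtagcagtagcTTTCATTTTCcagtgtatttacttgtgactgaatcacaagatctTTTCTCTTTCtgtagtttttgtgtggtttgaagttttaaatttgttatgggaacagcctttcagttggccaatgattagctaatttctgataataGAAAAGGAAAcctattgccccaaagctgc
Ncf1: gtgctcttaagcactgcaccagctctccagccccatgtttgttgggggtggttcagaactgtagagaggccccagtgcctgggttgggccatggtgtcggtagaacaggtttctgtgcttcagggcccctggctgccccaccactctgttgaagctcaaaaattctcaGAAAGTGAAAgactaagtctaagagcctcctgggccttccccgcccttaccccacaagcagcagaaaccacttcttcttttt
Cyba: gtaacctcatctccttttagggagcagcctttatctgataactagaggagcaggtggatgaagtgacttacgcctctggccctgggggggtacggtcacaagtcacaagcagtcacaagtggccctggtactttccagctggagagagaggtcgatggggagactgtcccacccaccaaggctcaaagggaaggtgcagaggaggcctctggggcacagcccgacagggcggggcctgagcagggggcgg

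The *Cybb* window held 3 matches to the GAAA repeat, with their leftmost bases at -168 and -124 on the minus strand and at -29 on the plus strand of the gene. The *Ncf1* window held 1, at -82 on the plus strand, and the *Cyba* window held none. Among 32851 mouse promoters of 250 bases, 2.98% held the repeat on either strand. GAGGAA, a purine-rich site bound by the ETS factor PU.1, stood in 23.3% of promoters. TTC followed after any 4 bases by GAA, the spacing typical of the IL-4 factor STAT6, stood in 5.85%. Neither was in the 3 windows shown. The shorter ETS core GGAA was not counted, but it can be read on 1 strand or the other in all 3 windows. These are matches of letters only, and binding was not measured. The RefSeq start used for *Cybb* lies inside the longer GENCODE gene given below.

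The 6 genes did not move as a unit. Against M0, M1 macrophages had more *Cybb*, *Cyba*, *Ncf1* and *Rac2* and less *Ncf4* and *Hvcn1*, and M2 macrophages had more *Cyba*, *Ncf4*, *Rac2* and *Hvcn1* and less *Cybb* and *Ncf1*. *Hvcn1* moved most, to a level 4.96-fold lower in M1 and 1.97-fold higher in M2. In the edgeR quasi-likelihood test with Benjamini-Hochberg adjustment over all 12905 genes, 6 of 6 members were called at an adjusted p below 0.05 in either comparison, where 77.6% of all genes were called in M1 and 76.8% in M2. Such a share is near that of all genes, so the directions and sizes below carry the description. Of all genes, 37.2% were called higher and 40.5% lower in M1, and 37% and 39.8% in M2. Scaling by total counts moved the median of all genes by -0.105 on the log2 scale in M1 and left 37.7% of the calls there higher, where TMM gave 47.9%, and every member kept its direction against M0. The members rose or fell in 15 of 15 mice in 5 of 6 cases in M1 and 4 of 6 in M2, where 48.4% and 48% of all genes did.

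**Figure D1:**
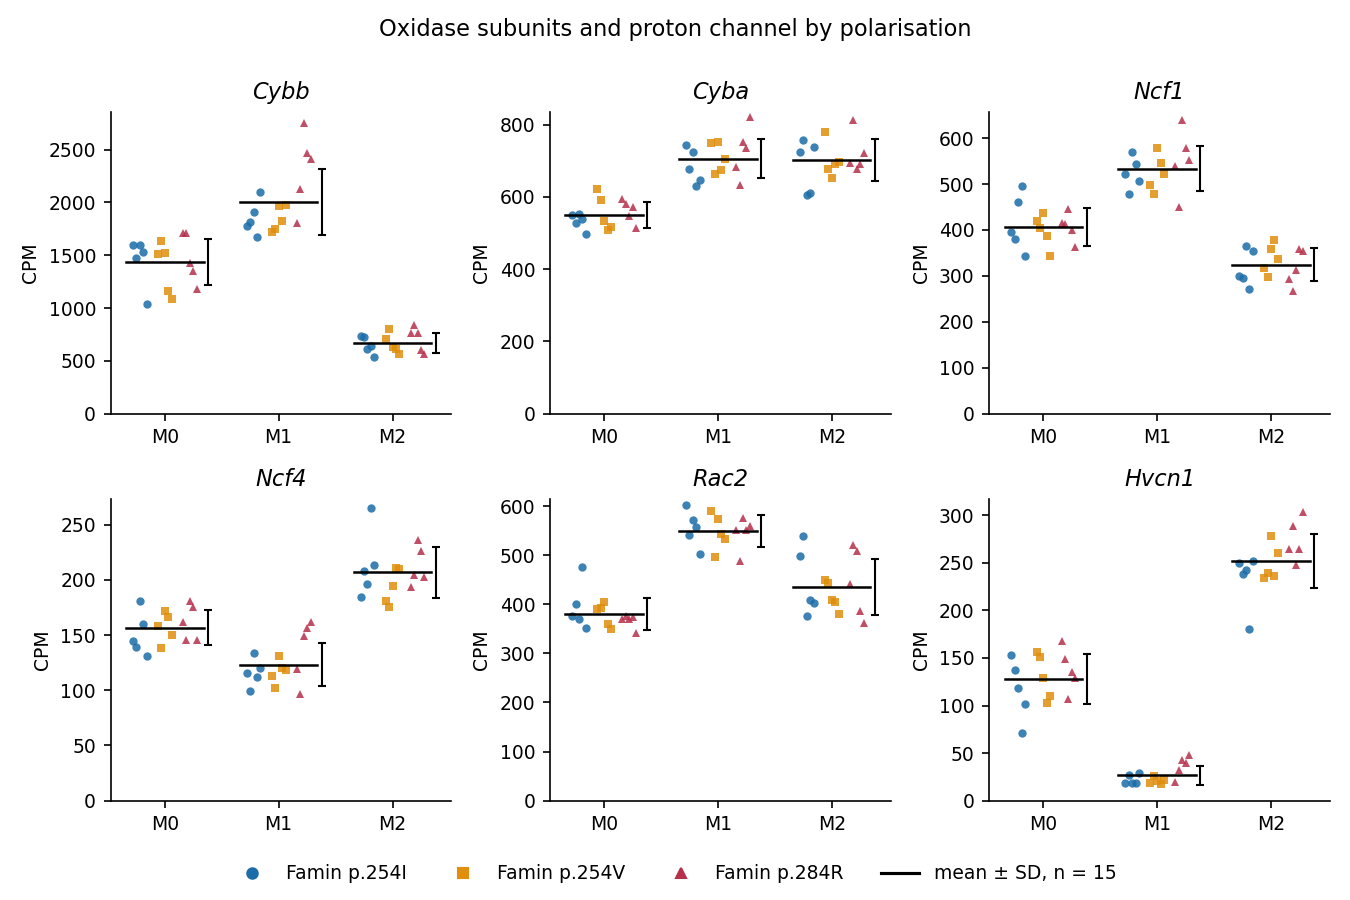
Level of each gene (y axes, CPM scaled by TMM, from 0) in every library of M0, M1 and M2 macrophages, 5 mice for each of 3 *Famin* genotypes, with the mean ± SD of the 15 libraries. *Hvcn1* averaged 26.6 CPM in M1 and 252 in M2 with no overlap, while *Cyba* averaged 706 and 702.

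*Cybb* (ENSMUSG00000015340, X:9435252-9487771 on the minus strand of GRCm38, 15 merged exons) encodes NOX2, the membrane subunit that carries the electrons. It ranged from 1043 to 1711 CPM in M0 (median 1507), from 1671 to 2750 in M1 (median 1906) and from 536 to 837 in M2 (median 641), over 15 libraries each. Every M2 library lay below every M0 and M1 library, whereas M0 and M1 overlapped at their edges. *Cybb* rose in M1 (log2 fold change 0.47, SE 0.074, adjusted p = 3.2e-07) in 15 of 15 mice, by 0.08 to 1.03. It fell by 1.09 on the log2 scale in M2 (SE 0.075, adjusted p = 2.0e-16) in 15 of 15 mice, and was 2.96-fold higher in M1 than in M2 (adjusted p = 7.3e-22).

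*Cyba* (ENSMUSG00000006519, 8:122424776-122432930, minus strand, 7 merged exons) encodes the small partner that stabilises NOX2 in the membrane and docks the organizer. Levels ran from 497 to 620 CPM in M0 (median 547), 630 to 820 in M1 (median 705) and 604 to 812 in M2 (median 693). Every M1 library thus exceeded every M0 library, and M1 and M2 covered the same range. The log2 fold change was 0.36 in M1 (SE 0.042, adjusted p = 3.0e-10) and 0.35 in M2 (SE 0.042, adjusted p = 6.6e-10), with 15 of 15 mice higher in either. Between M1 and M2 it was 0.01, with a 95% interval of -0.08 to 0.09 (adjusted p = 0.86), and 8 of 15 mice were higher in M1.

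The balance of the membrane pair was lowest in M2. Per kilobase of merged exon, *Cybb* stood at 0.466 ± 0.055 of the *Cyba* level in M0 (SD, n = 15), at 0.508 ± 0.070 in M1 and at 0.172 ± 0.024 in M2. The highest M2 ratio was 0.211 and the lowest M0 ratio was 0.375. Lengths are of all annotated exons of a gene, so the ratios are comparable between polarisations rather than as molecule counts.

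*Ncf1* (ENSMUSG00000015950, 5:134220053-134229625, minus strand, 11 merged exons) encodes the organizer whose phosphorylation opens the complex for assembly. It ran from 343 to 495 CPM in M0 (median 403), 449 to 639 in M1 (median 539) and 267 to 377 in M2 (median 316). All M1 libraries exceeded all M2 libraries, and M0 overlapped both. *Ncf1* rose by 0.39 on the log2 scale in M1 (SE 0.056, adjusted p = 4.1e-08, 15 of 15 mice higher) and fell by 0.33 in M2 (SE 0.056, adjusted p = 1.5e-06, 14 of 15 mice lower). M1 was 1.65-fold higher than M2 (adjusted p = 3.5e-15).

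*Ncf4* (ENSMUSG00000071715, 15:78244801-78262580, plus strand, 11 merged exons) encodes the subunit that binds phosphatidylinositol 3-phosphate on phagosomes and sustains the oxidase there. Its levels were 131 to 181 CPM in M0 (median 158), 97.1 to 162 in M1 (median 119) and 176 to 265 in M2 (median 204). The order was thus the reverse of *Ncf1*, with M2 above every M1 library. *Ncf4* fell by 0.35 on the log2 scale in M1 (SE 0.062, adjusted p = 3.3e-06, 14 of 15 mice lower) and rose by 0.40 in M2 (SE 0.062, adjusted p = 3.1e-07, 15 of 15 mice higher). It was 1.68-fold lower in M1 than in M2 (adjusted p = 3.3e-14). The per-length ratio of *Ncf1* over *Ncf4* was 1.44 ± 0.13 in M0, 2.41 ± 0.21 in M1 and 0.874 ± 0.129 in M2 (SD, n = 15), and the lowest M1 ratio of 1.89 exceeded the highest in M0, 1.70.

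*Rac2* (ENSMUSG00000033220, 15:78559167-78572783, minus strand, 7 merged exons) encodes the blood-cell Rac GTPase of the complex. It ran from 342 to 477 CPM in M0 (median 375), 488 to 602 in M1 (median 551) and 363 to 539 in M2 (median 410). All M1 libraries exceeded all M0 libraries, and M2 overlapped both. *Rac2* rose in M1 by 0.53 (log2 scale, SE 0.052, adjusted p = 3.3e-12, 15 of 15 mice higher) and in M2 by 0.20 (SE 0.051, adjusted p = 8.0e-04, 14 of 15 mice higher), and was 1.26-fold higher in M1 than in M2 (adjusted p = 1.8e-07). The related GTPase *Rac1* rose by only 0.09 in M1 (adjusted p = 0.010), and the per-length ratio of *Rac2* over *Rac1* was 1.5 ± 0.17 in M0, 2.04 ± 0.17 in M1 and 1.42 ± 0.13 in M2 (SD, n = 15).

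*Hvcn1* (ENSMUSG00000064267, 5:122206804-122242297, plus strand, 8 merged exons) encodes the voltage-gated proton channel. It ran from 71.3 to 168 CPM in M0 (median 129), 17.2 to 47.9 in M1 (median 21.2) and 181 to 303 in M2 (median 250). The 3 ranges did not overlap, and they rested on 377 to 1363 reads per library in M1. *Hvcn1* fell by 2.31 on the log2 scale in M1 (SE 0.107, adjusted p = 3.4e-22), with differences of -3.08 to -1.31 over 15 of 15 mice, and rose in M2 by 0.98 (SE 0.101, adjusted p = 2.8e-11) in 15 of 15 mice. M1 was 9.77-fold lower than M2 (log2 fold change -3.29, SE 0.111, adjusted p = 4.4e-27). The per-length ratio of *Hvcn1* over *Cybb* was 0.146 ± 0.025 in M0, 0.0211 ± 0.0050 in M1 and 0.622 ± 0.119 in M2 (SD, n = 15), so that M2 macrophages combined the lowest *Cybb* with the highest *Hvcn1*.

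**Figure D2:**
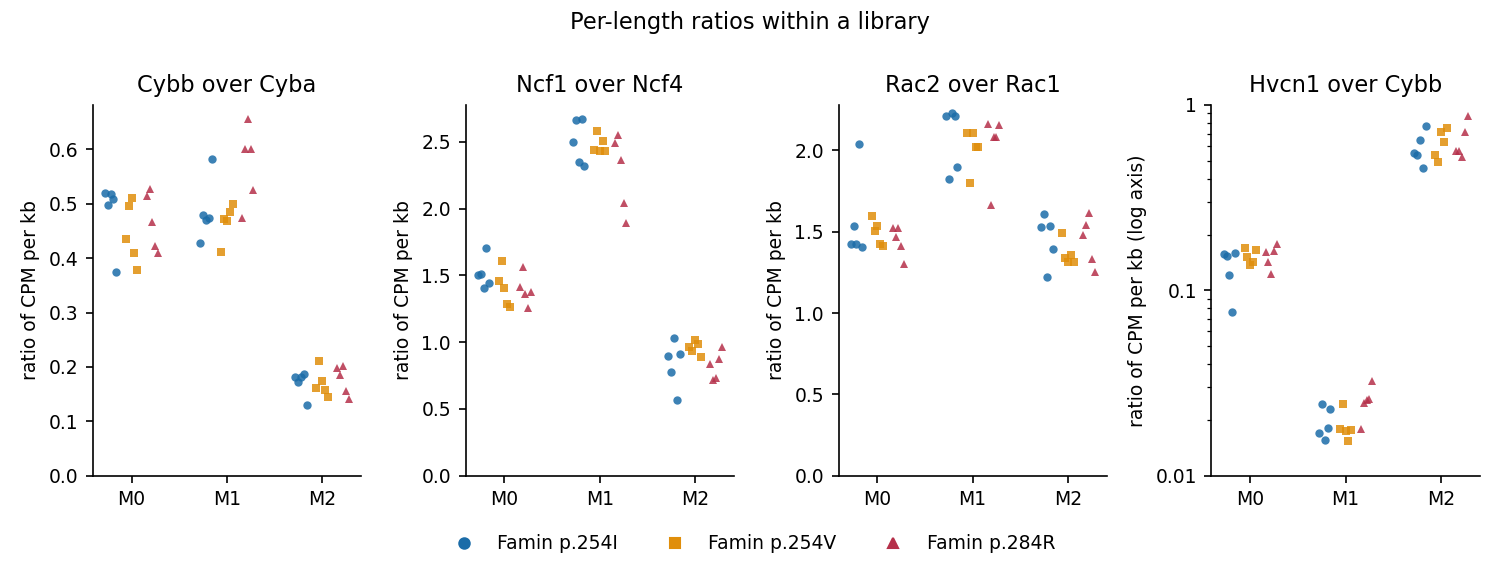
Ratio of per-length levels (CPM per kilobase of merged exon) of 4 gene pairs in every library of M0, M1 and M2, by genotype. The first 3 y axes are linear from 0 and the last is logarithmic. *Cybb* over *Cyba* averaged 0.172 in M2 against 0.466 in M0, and *Hvcn1* over *Cybb* averaged 0.0211 in M1 and 0.622 in M2.

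Of the exon bases of *Hvcn1*, 44.2% lie under exons of *Tctn1* on the opposite strand. Whether counting used the strand is not stated in the sources used here, so reads there cannot be told apart. *Tctn1* had 18.3, 19.7 and 12.8 CPM on average in M0, M1 and M2, with a log2 fold change of 0.11 in M1 (adjusted p = 0.074) and of -0.51 in M2 (adjusted p = 8.3e-11), the other direction from *Hvcn1*. *Gtf2ird2* overlaps 11.1% of the exon bases of *Ncf1* and averaged 7.72 CPM in M0, 7.15 in M1 and 7.20 in M2.

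Asked instead for a change beyond 1.5-fold (edgeR glmTreat), only *Hvcn1* was called in M1 against M0, where 28.6% of all genes were. *Cybb* and *Hvcn1* were called in M2 against M0, where 22.7% of all genes were, and *Cybb*, *Ncf1*, *Ncf4* and *Hvcn1* between M1 and M2, where 32.8% were. Between M1 and M2, 5 of 6 members were called in the test of any change, 3 higher and 2 lower in M1, where 79.1% of all genes were called, 39% higher and 40.1% lower. There 4 of 6 members differed one way in 15 of 15 mice, and 51.6% of all genes did. Ranges of the 15 libraries were apart for 3 of 6 members in M1 against M0 (28.6% of all genes), 2 in M2 against M0 (23.4%) and 4 between M1 and M2 (35.7%). The median log2 fold change of the members was 0.38 in M1 and 0.27 in M2, where the median over all genes was -0.03 and -0.02.

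**Figure D3:**
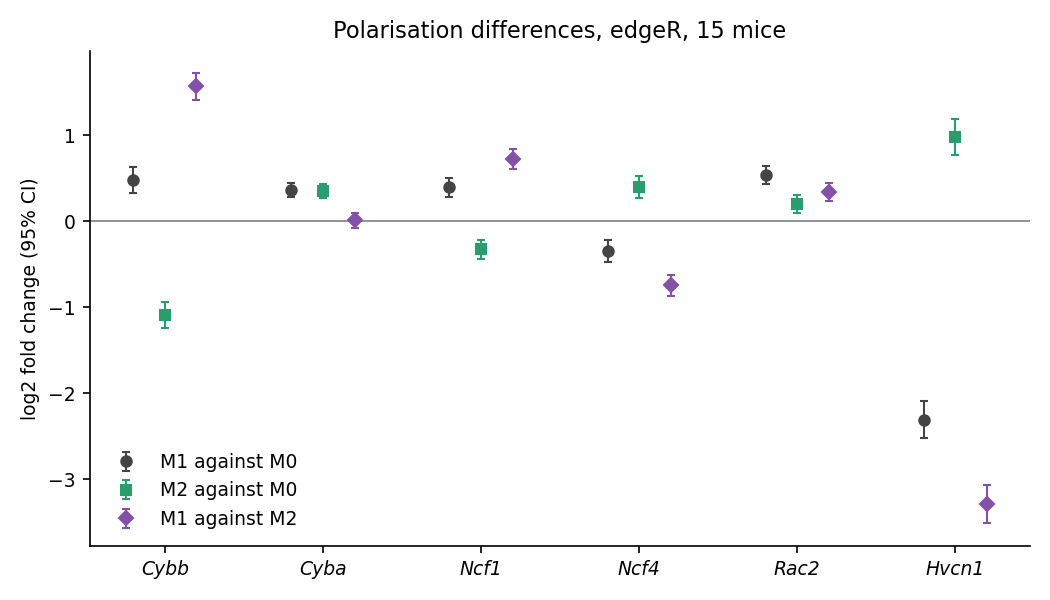
Log2 fold change (y axis) of each gene in the 3 polarisation comparisons, averaged over the 3 genotypes in edgeR, with 95% confidence intervals. *Hvcn1* lies at -2.31 and -3.29 in both comparisons of M1, *Cybb* at -1.09 in M2 against M0, and *Cyba* at 0.01 in M1 against M2.

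Neutrophil markers were low but not absent, and they differed between polarisations. Of the 9 listed markers, *Ly6g*, *Mpo*, *Elane* and *Retnlg* were at 0 in 17, 1, 6 and 8 of the 45 libraries, with at most 0.461, 1.81, 0.859 and 2.43 CPM. The others were found in every library, *S100a8* at 4.85 to 69.1 CPM, *S100a9* at 7.63 to 125 and *Ngp* at 3.15 to 77.7. *Ltf* had 1.74 to 48.9 CPM and *Camp* 0.207 to 7.53. The summed level was 30.4 to 333 CPM in M0 (5 of 9 markers averaged 1 CPM or more), 46.7 to 153 in M1 (5 of 9) and 17.8 to 82.6 in M2 (4 of 9). The medians of that sum were 89.1, 70.1 and 35.2 CPM in M0, M1 and M2, and those of *Cybb* were 1507, 1906 and 641. Both were thus lowest in M2, while from M0 to M1 *Cybb* was higher and the marker sum lower. The 4 dendritic cell markers did not rise together. *Xcr1* reached 10.6 CPM in M1 but at most 0.154 in M2 and 0.0679 in M0. *Zbtb46* reached 12.4 CPM in M2 but at most 0.521 in M1 and 1.02 in M0. *Flt3* and *Ccr7* had at most 0.317 and 0.396 CPM in any library. The fibroblast markers *Col1a2*, *Col1a1* and *Dcn* reached 44.8, 38.1 and 1.15 CPM. The part of these markers in the results was not tested, and in bulk cultures fewer cells of a type and less RNA per cell cannot be told apart.

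Within a polarisation the members varied with the replicate number. In M0, *Cybb* averaged 1603, 1607 and 1516 CPM over the 3 mice numbered 1, 2 and 3, but 1348 over those numbered 4 and 1103 over those numbered 5. The 3 libraries numbered 5 held 1043, 1088 and 1180 CPM and were, with p.254V replicate 4 (1165), the lowest 4 of the 15. M2 showed a like spread, with *Cybb* averaging 738, 786, 671, 618 and 556 CPM for numbers 1 to 5, whereas M1 did not, with 1769 for number 1 and 2161 for number 5. *Hvcn1* in M0 averaged 159, 146, 118, 103 and 114 CPM for the same numbers. The neutrophil markers summed to 158, 114 and 240 CPM in the 3 M0 libraries numbered 1, to 302, 234 and 333 in those numbered 2, and to 31.2, 49.7 and 30.4 in those numbered 5. Their part in the *Cybb* spread was not tested. What a number stands for is not stated in the labels.

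**Figure D4:**
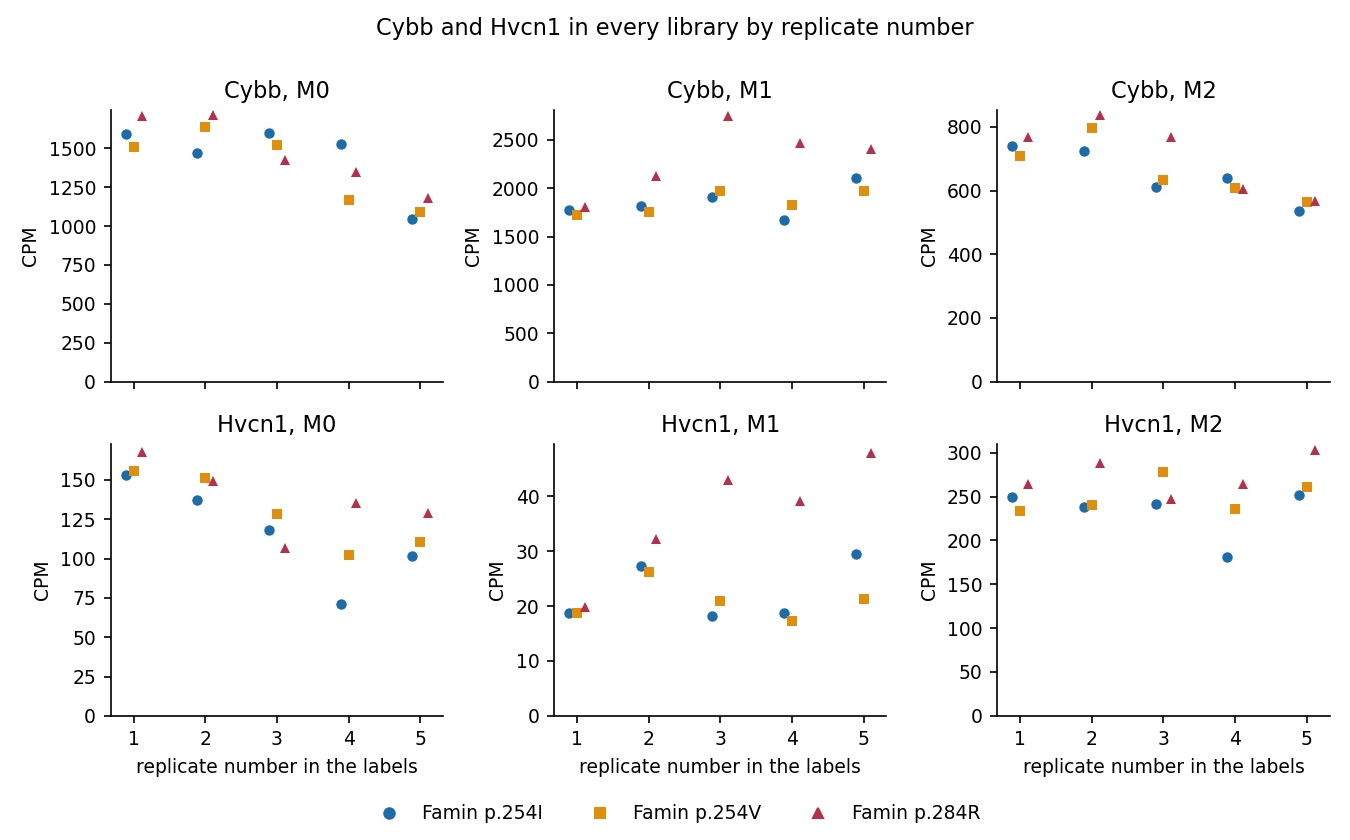
Level of *Cybb* and *Hvcn1* (y axes, CPM from 0) in every library against the replicate number of the label (x axis), by polarisation and *Famin* genotype. In M0 the 3 mice numbered 5 held 1043 to 1180 CPM of *Cybb* whatever their genotype, and in M1 the p.284R mice numbered 3 to 5 held the highest *Hvcn1*, 39.1 to 47.9 CPM.

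Whether *Famin* genotype moved the oxidase was addressed by comparing p.284R and p.254V with p.254I. Averaged over the 3 polarisations, p.254V differed from p.254I by no more than 0.06 on the log2 scale in any member, with the widest interval for *Hvcn1*, -0.15 to 0.26. Of the 6 members edgeR called 0, DESeq2 and limma-voom also called 0, and 0 had an unadjusted p below 0.05, where 0.0155% of all genes were called and 2.53% had such a p. Within M0, M1 and M2 the differences between p.254V and p.254I lay between -0.14 and 0.16, with 0 members called by any of the 3 tools and 0 at an unadjusted p below 0.05. Of all genes 0% were called there, and 1.91%, 0.876% and 2.76% had an unadjusted p below 0.05 in M0, M1 and M2.

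In p.284R macrophages the largest difference was in *Hvcn1* in M1. The 5 p.284R libraries held 19.9, 32.3, 43.0, 39.1 and 47.9 CPM for replicates 1 to 5, where p.254I held 18.7, 27.3, 18.2, 18.6 and 29.6 and p.254V held 18.8, 26.2, 20.9, 17.2 and 21.2. Thus 4 of 5 p.284R libraries exceeded every library of either other genotype, and replicate 1 did not. The log2 fold change was 0.70 against p.254I (SE 0.181, 95% interval 0.33 to 1.06), which was not called by edgeR (unadjusted p = 4.2e-04, adjusted p = 0.089), where 0.271% of all genes were called. With the replicate number as a block the value was 0.72 (SE 0.175) and was called (adjusted p = 0.042), as were 0.604% of all genes. Against p.254V the log2 fold change was 0.80 (SE 0.181, adjusted p = 0.053, with 0.116% of all genes called), and 0.82 with the block (adjusted p = 0.024, with 0.302% of all genes called). These comparisons share the p.284R libraries and are not separate evidence.

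Over the alternatives that kept all mice, the adjusted p of *Hvcn1* in M1 between p.284R and p.254I ran from 0.032 with the DESeq2 Wald test to 0.81, and 2 of 10 called it. Without p.284R replicate 1 it was 0.0048 (log2 fold change 0.85) and without p.254I replicate 5 it was 0.048 (0.81), whereas without p.284R replicate 5 it was 0.58 (0.58). The *Hvcn1* level of p.284R was 1.18 times that of p.254I both in M0 (95% interval 0.927 to 1.51) and in M2 (interval from 0.923, log2 fold change 0.24, adjusted p = 1.00). Without p.254I replicate 4, whose M0 and M2 libraries stood apart, the log2 fold change was 0.11 in M0, where it had been 0.24 with all mice, and 0.15 in M2. The difference in M1 exceeded that in M0 by 0.46 on the log2 scale, with an interval of -0.05 to 0.96 (unadjusted p = 0.077, adjusted p = 1.00), so a difference between polarisations was not shown. Averaged over polarisations it was 0.39 (SE 0.102, unadjusted p = 4.2e-04, adjusted p = 0.32, with 0.0232% of all genes called). With the mouse as a random block in limma-voom it was 0.40 (SE 0.127, unadjusted p = 0.0034, adjusted p = 1.00).

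*Cybb* and *Ncf4* were the other members with an unadjusted p below 0.05 in M1, making 3 of 6 against p.254I (6.83% of all genes) and 3 of 6 against p.254V (6.29% of all genes). With the mouse as a random block it was 3 and 2, as *Ncf4* had an unadjusted p of 0.060 against p.254V. The ranges of 5 libraries were apart for 0 members in either comparison, and for 0.604% and 0.62% of all genes. *Cybb* held 1805, 2124, 2750, 2464 and 2409 CPM in p.284R replicates 1 to 5, against at most 2103 in p.254I and 1971 in p.254V. *Ncf4* held 119, 97.1, 149, 157 and 162 CPM in the same libraries, against 98.9 to 134 in p.254I and 102 to 131 in p.254V. Replicate 2 was thus below every library of either other genotype in *Ncf4*. Replicates 3, 4 and 5 were thus above all 10 libraries of the other genotypes in *Hvcn1*, *Cybb* and *Ncf4* alike, and replicate 1 was within their range in all 3 genes. Neither gene was called against p.254I, with log2 fold changes of 0.32 for *Cybb* (95% interval 0.06 to 0.58, adjusted p = 0.56) and 0.24 for *Ncf4* (0.02 to 0.45, adjusted p = 0.67). *Cyba*, *Ncf1* and *Rac2* differed by 0.08, 0.07 and -0.03 in the same comparison. For *Rac2* the interval was -0.21 to 0.15.

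Markers of the M1 state stood apart in some of the same p.284R libraries. *Cxcl9*, *Nos2* and *Il12b* summed to 3376, 1786, 5421, 4872 and 5256 CPM in p.284R replicates 1 to 5 in M1, against 982 to 3511 in p.254I and 1372 to 3679 in p.254V, so that replicates 3, 4 and 5 again exceeded all 10 other libraries. Replicate 2, at 1786 CPM, lay within the range of the other genotypes, while its *Hvcn1* and *Cybb* levels exceeded all 10 of their libraries. Number 2 had the lowest sum in each genotype, however. The libraries numbered 2 held 982 CPM in p.254I and 1372 in p.254V, both below that of p.284R. The sum was mostly *Cxcl9*, which averaged 3125 CPM in M1, where *Nos2* averaged 37.6. The M2 markers summed to 114, 86.5 and 71.6 CPM in p.284R replicates 3, 4 and 5, below the lowest of the other genotypes, 135. *Lacc1* had 396, 263, 218, 584 and 553 CPM in p.284R replicates 1 to 5. The part of these levels in the differences was not tested. The neutrophil markers summed to 46.7 to 135 CPM in p.284R M1 libraries, 47.7 to 153 in p.254I and 61.6 to 98.9 in p.254V. *Tctn1* had a log2 fold change of -0.03 between p.284R and p.254I in M1 (edgeR, adjusted p = 0.99). Reads over the exons it shares with *Hvcn1* cannot be told apart, and their part in the difference was not tested.

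**Figure D5:**
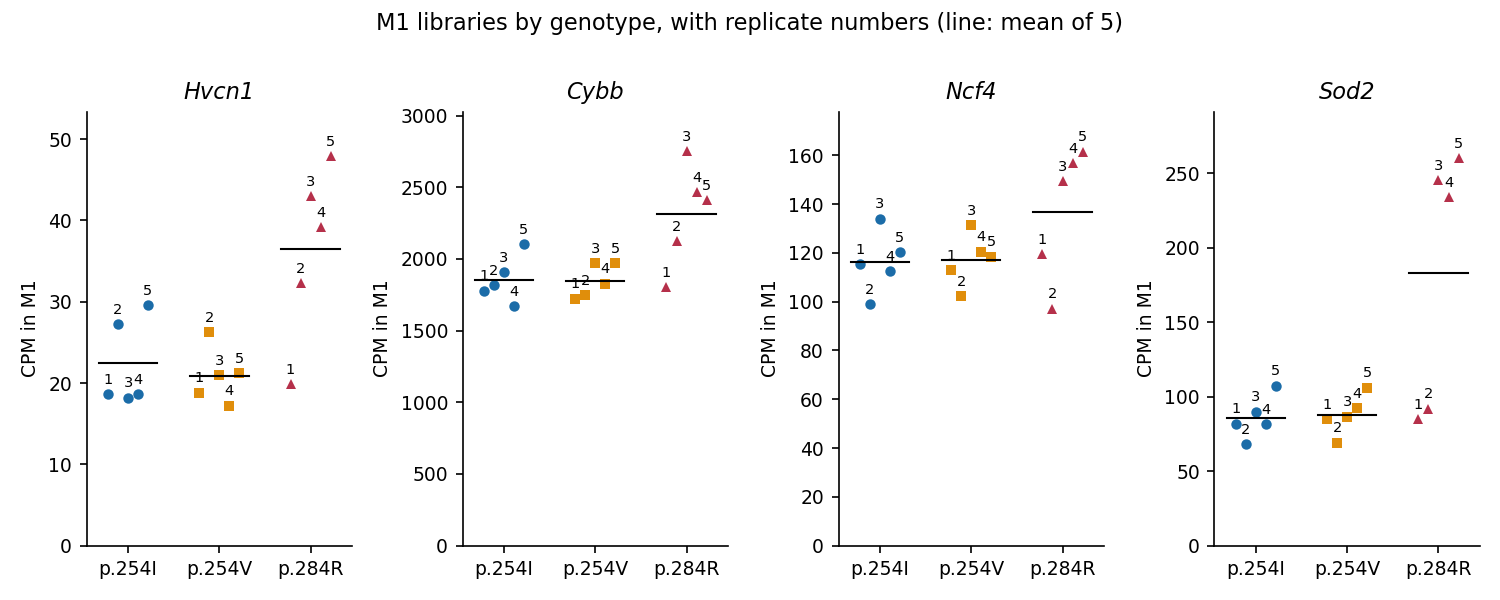
Level in M1 (y axes, CPM from 0) of *Hvcn1*, *Cybb*, *Ncf4* and of the superoxide dismutase gene *Sod2* in each of 5 mice of 3 *Famin* genotypes, with the replicate number beside each point and a line at the mean. Replicates 3, 4 and 5 of p.284R lie above all libraries of the other genotypes in each panel, at 234 to 260 CPM for *Sod2*.

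In the other comparisons of p.284R, 0 members were called by edgeR, DESeq2 or limma-voom. Averaged over polarisations, 2 members (*Hvcn1* and *Cybb*) had an unadjusted p below 0.05 against p.254I, where 4.32% of all genes did, with *Cybb* at 0.16 on the log2 scale (adjusted p = 1.00). Against p.254V it was 3 members, *Hvcn1* at 0.34, *Cybb* at 0.17 and *Ncf4* at 0.13 (adjusted p = 0.95 each), where 4.62% of all genes had such a p and 0% were called. These counts did not hold with the mouse as a random block in limma-voom, which left 1 member, *Hvcn1*, below an unadjusted 0.05 against p.254I (1.7% of all genes) and 1, also *Hvcn1*, against p.254V (1.34% of all genes). *Cybb* then had an unadjusted p of 0.12 and 0.089, and *Ncf4* one of 0.096 against p.254V. Within M0 and M2 against p.254I, 0 members had an unadjusted p below 0.05, and the log2 fold changes lay between -0.11 and 0.24, with 0% and 0.00775% of all genes called and 1.18% below an unadjusted 0.05 in either. Against p.254V they lay between -0.05 and 0.09 in M0 and between -0.09 and 0.13 in M2, with 0 members at an unadjusted p below 0.05, where 0.519% and 2.58% of all genes had one and 0% were called. In the 4 comparisons of a genotype difference in M1 or M2 with that in M0, 0 members had an unadjusted p below 0.05 and 0% of all genes were called. Of all genes 2.8% (M1) and 0.558% (M2) had such a p for p.284R and 0.829% (M1) and 1.33% (M2) for p.254V.

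Around the 6 members, 39 further genes of the pathway were counted, of which 32 were tested. In M1, 15 rose, 12 fell and 5 were not called, where 37.2% of all genes were called higher and 40.5% lower. In M2, 14 rose, 12 fell and 6 were not called, where 37% of all genes were called higher and 39.8% lower. The median log2 fold changes were 0.09 and 0.08, where those of all genes were -0.03 and -0.02. Between M1 and M2 14 were higher in M1, 14 were lower and 4 were not called, where 39% and 40.1% of all genes were called higher and lower. The same shares of all genes belong beside the counts of each list below, which are given as a description.

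Of the 3 partners listed, 2 rose and 0 fell in M1, 1 rose and 1 fell in M2, and 1 was higher and 1 lower in M1 than in M2. *Cybc1*, the chaperone that NOX2 needs to mature, followed *Cybb* in direction, with log2 fold changes of 0.66 in M1 (adjusted p = 5.0e-15), -0.21 in M2 (adjusted p = 2.7e-04) and 0.88 between M1 and M2 (adjusted p = 5.2e-19). *Rac1* rose by 0.27 in M2 (adjusted p = 1.0e-09), and its log2 fold change between M1 and M2 was -0.18 (adjusted p = 4.2e-06). *Rap1a*, a small GTPase that copurifies with the membrane pair, was called in none of the 3 comparisons.

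Of the 9 genes of other oxidases, 7 were too low to test, with at most 0.191 CPM in any library. *Nox1*, the catalytic subunit of the colon oxidase, averaged 0.982, 1.63 and 0.327 CPM in M0, M1 and M2, and its organizer *Noxo1* 3.32, 2.42 and 1.03. *Nox1* rose by 0.70 in M1 (log2 scale, adjusted p = 0.0023) and fell by 1.59 in M2 (adjusted p = 2.9e-06), but reached at most 2.90 CPM in any library. *Noxo1* fell in both, with log2 fold changes of -0.46 (adjusted p = 2.1e-05) and -1.68 (adjusted p = 7.2e-18). Both were higher in M1 than in M2, by 2.29 for *Nox1* (adjusted p = 2.2e-10) and 1.22 for *Noxo1* (adjusted p = 2.8e-13). *Cybb* had 536 CPM or more throughout.

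Of the 15 kinases, phospholipase and Rac exchange factors that drive assembly, 5 rose, 8 fell and 2 were not called in M1, and 9 rose, 5 fell and 1 was not called in M2. *Pla2g4a*, the cytosolic phospholipase A2 whose arachidonate activates the oxidase and the proton channel, rose from 17.4 to 157 CPM in M1 (log2 fold change 3.17, adjusted p = 4.8e-29). *Pik3cg*, a lipid kinase, fell by 1.67 in M1 (adjusted p = 7.4e-22). *Prkcd*, a protein kinase C that phosphorylates the organizer subunit, rose from 390 to 1409 CPM in M2 (1.85, adjusted p = 1.3e-36), and the Rac exchange factor *Tiam1* rose there by 1.69 (adjusted p = 3.4e-19). Between M1 and M2, 5 were higher and 9 lower in M1, with log2 fold changes of -2.01 for *Tiam1* (adjusted p = 4.5e-22) and 1.84 for *Pla2g4a* (adjusted p = 4.7e-22).

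Of the 8 inhibitors and enzymes that remove superoxide or use peroxide, 3 rose, 3 fell and 2 were not called in M1, and 3 rose, 2 fell and 3 were not called in M2. Catalase (*Cat*), which breaks down hydrogen peroxide, fell from 554 to 207 CPM in M1 (log2 fold change -1.42, adjusted p = 1.7e-22) and less in M2 (-0.59, adjusted p = 1.1e-10). *Sod2*, the mitochondrial superoxide dismutase, rose in M1 by 0.96 (adjusted p = 3.3e-10). The extracellular *Sod3* rose in M2 by 2.33 (adjusted p = 3.1e-10), from a mean of 0.216 to 1.10 CPM. Between M1 and M2, 2 of the 8 were higher and 4 lower in M1, with log2 fold changes of -2.26 for *Sod3* (adjusted p = 7.7e-10) and -0.84 for *Cat* (adjusted p = 3.1e-15). *Sod2* was also the one pathway gene called between genotypes, in M1, at 1.10 on the log2 scale for p.284R against p.254I (adjusted p = 0.0025) and at 1.06 against p.254V (adjusted p = 0.0064). Its level was 85, 92.0, 246, 234 and 260 CPM in p.284R replicates 1 to 5, and at most 107 in p.254I and 106 in p.254V.

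Of the 4 transcription factors known to drive oxidase genes, 4 rose in M1, and 1 rose, 2 fell and 1 was not called in M2. Of all genes, 37.2% were called higher in M1, and 37% higher and 39.8% lower in M2. *Irf1*, an interferon regulatory factor, rose from 103 to 1382 CPM in M1 (log2 fold change 3.75, adjusted p = 3.1e-35), and *Irf8*, a myeloid factor that acts with PU.1, from 231 to 816 CPM (1.82, adjusted p = 8.1e-28). In M2 *Irf8* fell by 0.92 (adjusted p = 9.3e-18) and *Elf1*, an ETS factor, had a log2 fold change of -0.25 (adjusted p = 6.7e-08). Between M1 and M2 all 4 were higher in M1, *Irf1* by 3.68 (adjusted p = 3.7e-35) and *Irf8* by 2.74 (adjusted p = 1.1e-33). *Irf8* and *Elf1* thus had the order of *Cybb*, with M1 above M0 above M2, and the other listed factors did not.

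Across the 45 libraries, which share polarisation, mouse and depth, members correlated in 2 directions (Pearson r of log2 CPM, as a description). *Cybb* and *Ncf1* had r = 0.85, and *Ncf4* and *Hvcn1* had r = 0.84, whereas *Ncf1* and *Hvcn1* had r = -0.86 and *Cybb* and *Ncf4* r = -0.77. *Cyba* had r = -0.08 with its membrane partner *Cybb* and was closest among the members to *Rac2* (r = 0.70). The value for *Cyba* and *Cybb* pools polarisations in which they rose together (M1) or moved apart (M2). Within M0 both averaged lowest for replicate number 5 (509 and 1103 CPM), whereas in M2 only *Cybb* did. Correlation within a polarisation was not examined. Among 8403 other genes with a mean of at least 10 CPM, those most like *Cybb* were *Susd6* (r = 0.98), *Arl5c* and *Lpcat2* (0.97 each), and those most like *Ncf1* were *Trim12c* (0.95), *Gbgt1* (0.95) and *Mxd1* (0.94). *Cyba* was most like *Cox4i1* (0.92), *Ifi30* and *Ubxn1* (0.91 each), and *Rac2* most like *C3*, *Gsdmd* and *Wbp11* (0.93 each). *Ncf4* was most like *Src* (0.93), *Myo1f* and *Mitf* (0.92 each). *Hvcn1* was most like *Fam20c* (0.98), *Stac2* and *Rhoc* (0.98 each), and *Fam20c* averaged 309, 24.3 and 926 CPM in M0, M1 and M2, an order that *Hvcn1* shares.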

How the data were processed

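Raw counts per gene for 45 libraries were deposited by the authors, with a CPM table of 11900 genes (depth-scaled counts, also deposited). Per the labels, single-end reads of TruSeq stranded mRNA libraries were made, and the submitters' processing notes name FastQC, Trim Galore, HISAT2, limma and the build mm10. The series text names another aligner, and the counting tool and its use of strand are not given in the sources used here. All CPM values came out as whole reads (100%, tolerance 0.01).

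Counts were tested in edgeR 4.0.16 (R 4.3.3) by the quasi-likelihood test (robust, TMM factors 0.939 to 1.10) on 9 groups of 5 libraries after filterByExpr, with Benjamini-Hochberg adjustment and calls below 0.05. Levels are TMM-scaled CPM, and correlations use log2 CPM with a prior count of 1. Polarisation contrasts average the 3 genotypes. Same-numbered libraries of 2 genotypes deviated together over 8187 genes in 15 of 15 pairs in M0 (r 0.12 to 0.88) and 15 of 15 in M1 (0.28 to 0.88). In M2 it was 13 of 15, with r from -0.44 to 0.78. The exceptions were p.284R replicate 3 with p.254I (-0.44) and with p.254V (-0.34). The replicate number was therefore also fitted as a block. Cultures of 1 mouse deviated together in 15 of 15 mice between M2 and M0 (r over 0.1), 13 of 15 between M1 and M0 and 10 of 15 between M1 and M2. Alternatives used DESeq2 1.42.0 and limma-voom 3.58.1, other scalings, filters, blocks and left-out mice. 0 pairs of libraries had identical counts. Coordinates and exon overlaps are from GENCODE M21 (GRCm38). The fit was tested on simulated data.

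The members, gene lists and named pathway genes were chosen with earlier results of these data known. In each pathway list the 2 called genes with the largest absolute log2 fold change per polarisation comparison were eligible to be named, every member was named, and a pathway gene was named between genotypes when called. *Rap1a* and the neighbours of the members were named besides. One gene of the pathway list and one motif are not reported here, and the counts leave them out.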

Additional observations from a re-analysis of the deposited data

Results flagged for a closer look

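Within groups of 5 mice, 4 values stood farther from the others than Dixon's 95% critical value of 0.71 allows (gap over range). Chance flags about 1 in 20 groups and 54 groups were examined, so a few such values arise by chance. *Cybb* had 1043 CPM in the M0 library of p.254I replicate 5, where the nearest other library had 1473. *Hvcn1* had 181 CPM in the M2 library of p.254I replicate 4, where the nearest had 238, and this is the mouse whose M0 and M2 libraries lay farthest from the rest. *Rac2* had 342 CPM in the M0 library of p.284R replicate 5 (nearest 370) and 488 CPM in the M1 library of p.284R replicate 2 (nearest 550).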

How the results depend on the processing

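Against M0 and between M1 and M2 the number of members called was the same under DESeq2 size factors, total counts, the DESeq2 Wald test, limma-voom, other filters, all replicate blocks and each left-out mouse. A test for more than 1.5-fold left 1 member called in M1 and 2 in M2 against M0. For p.284R in M1, 1 member (*Hvcn1*) in place of 0 was called against p.254I by the DESeq2 Wald test and in the fit blocked on replicate number, and 1 against p.254V by those and with reads recovered from the CPM table. Leaving out 1 mouse at a time gave 0 to 1 in either comparison. With the mouse as a random block in limma-voom it was 0, and the blocks changed no other count of members called.

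Small differences changed sign. *Cyba* between M1 and M2 (0.01) was -0.030 with total counts, -1.61e-05 with at least 10 counts in every library, and -0.0076 to 0.043 with 1 mouse left out. With 1 mouse left out, p.284R against p.254I ran from -0.013 to 0.058 for *Ncf1* (averaged) and -0.063 to 0.0083 for *Rac2* (M1), and p.254V against p.254I (averaged) from -0.057 to 0.019 for *Cybb*, -0.022 to 0.052 for *Ncf1*, -0.055 to 0.014 for *Ncf4* and -0.038 to 0.10 for *Hvcn1*. The causes were not tested. With 5 mice a group the intervals of genotype differences in 1 polarisation stayed wide, 0.33 to 1.06 for *Hvcn1* in M1.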
